A study of Drosophila melanogaster with 8 samples.

Results

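Eye discs of 2 Drosophila melanogaster stocks were set against each other here: RMCE-2, an RMCE stock of the locus that holds mir-11 and mir-998, and mir-11 KO(w-), called the knockout below. The comparison takes the 4 libraries labelled for these stocks out of 8 in the study, and 11068 of 15682 counted genes had enough reads to be tested. Per the labels, each stock gave 2 biological replicates, each a pool of 30 to 50 discs from larvae of the third instar kept at 25 °C, so the single animals cannot be told apart. The remaining 4 libraries are 2 of RMCE-1, another RMCE stock of that locus, and 2 of the wild-type strain Canton S. They entered the fit to add to the estimate of spread, and their levels are given where they help to read a gene. The letters RMCE are commonly used for recombinase-mediated cassette exchange, in which a chosen sequence is swapped into a fixed genomic site. The labels do not state which sequences the RMCE stocks hold, or how many independent lines lie behind each stock. The series is titled for unchecked expression of miR-998, and the labels do not say which stock carries it.

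The eye disc is the larval epithelium from which the adult eye forms, and its antennal portion gives the antenna. The microRNAs miR-11 and miR-998 are made from hairpins within an intron of E2f1, the gene of the cell cycle factor E2F1. In fly work, miR-11 limits the apoptosis inducers rpr and hid, and miR-998 limits Cbl, a ubiquitin ligase that dampens EGFR signalling. Late in the third instar, pulses of the steroid ecdysone switch on cascades of nuclear receptors, and the disc then starts to lay down cuticle and to evert.

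Total counts were 13095980 and 17643039 in the RMCE-2 libraries and 18290314 and 16656252 in the knockout libraries, within 11929158 to 19670470 over all 8. Levels are given in CPM, a count scaled by the library's total and its scaling factor in the fit. Over the 8174 genes with a mean of 5 CPM or more, the median absolute difference between replicates was 0.12 on the log2 scale in RMCE-2. In the knockout it was 0.072. Genes of eye identity were present in every library: dac, which encodes a retinal determination factor, had 171 and 169 CPM in RMCE-2 and 221 and 215 CPM in the knockout. Antennal genes were present too, with Dll at 76.8 and 67.9 CPM in RMCE-2 and 86.5 and 88.3 CPM in the knockout. An RMCE-2 library, replicate 1, stood out in its Hsp70 and Hsp68 genes, as described with the markers below. Among the other stocks, Canton S replicate 1 held gut protease genes and RMCE-1 replicate 2 Hsp70, fat body and glue genes at high levels.

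RMCE-2 discs differed from knockout discs in 64 genes, which is 0.578% of those tested (edgeR quasi-likelihood test with Benjamini-Hochberg adjustment, adjusted p under 0.05). RMCE-2 was higher in 37 of them (0.334%) and lower in 27 (0.244%). The change was 2-fold or more in 34 genes (0.307%), 16 higher and 18 lower, and the smallest called change was 0.39 on the log2 scale. The libraries of the stocks did not overlap in any of the 64, while the same held for 50.3% of all genes tested. At an unadjusted p under 0.05 the test gave 1459 genes, or 13.2%. Of the 64, 55 are protein coding, 4 are small non-coding RNAs and 5 had an identifier with no symbol in the annotation used. The median log2 fold change over all genes was -0.003.

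The number of calls moved when 1 library was left out, and it rose without either library of RMCE-1. Each such fit leaves the stock with a lone library. Lost power and the values of the missing library cannot be told apart there. Without RMCE-2 replicate 1 or 2 the count was 9 or 7, without knockout replicate 1 or 2 it was 3 each time, and without Canton S replicate 1 or 2 it was 36 or 35. All 64 genes kept their direction in each of 19 alternative fits. As their libraries did not overlap between the stocks, a change of direction was unlikely beforehand, so this is little evidence of stability. The genes sut2, CG8785 and CG32373 were called in every one of the 19 fits. Of the fits that left out 1 library of the compared stocks, Cpr97Ea and CHKov1 were called in the 2 lacking an RMCE-2 library, and CG13840, Spn100A and IntS12 in 1 of these. The other 56 genes were called in none of the 4.

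**Figure D1:**
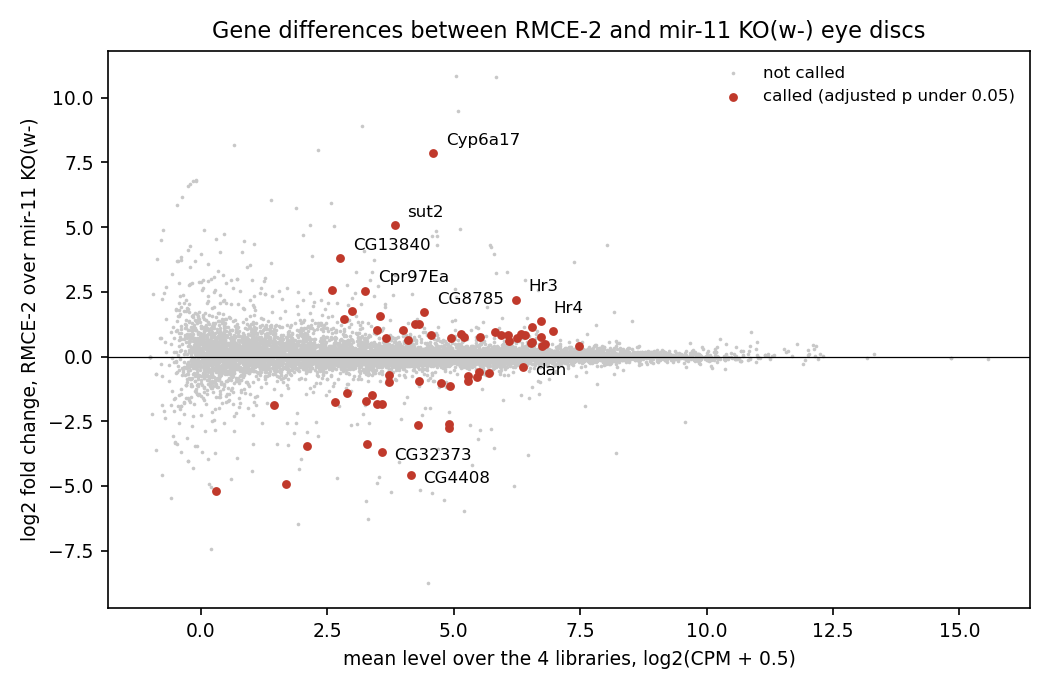
Each point is a tested gene, placed by its mean level over the 4 libraries (x axis, log2 of CPM + 0.5) and its log2 fold change, RMCE-2 over mir-11 KO(w-) (y axis), with the 64 called genes in red. Called genes lie on both sides of 0, and many uncalled genes have larger fold changes than the called ones at the same level.

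The microRNA locus itself gave few reads. In the BDGP6.54 annotation, mir-998 (chromosome 3R, 21621879 to 21622021, minus strand) and mir-11 (3R, 21622497 to 21622571, minus strand) lie within E2f1, in the final intron of each of its 6 annotated transcripts. mir-11 had 0 and 1 reads in RMCE-2 and 0 and 0 in the knockout, so the loss of mir-11 that the label KO implies could not be checked from these reads. The mir-998 gene had 18 and 31 reads in RMCE-2, or 1.38 and 1.73 CPM, and 12 and 13 reads in the knockout, or 0.642 and 0.772 CPM. Both RMCE-2 libraries were above both knockout libraries, yet the difference did not pass (log2 fold change 1.14, SE 0.37, edgeR adjusted p = 0.255). Reads at the hairpin cannot be told apart from those of the E2f1 intron. E2f1 (3R, 21620304 to 21660871) had 198 and 189 CPM in RMCE-2 and 228 and 230 CPM in the knockout, a log2 fold change of -0.24 that did not pass either (edgeR adjusted p = 0.151). The eye pigment transporter gene w, named in the knockout's label, had 2.22 and 1.90 CPM in RMCE-2, 0.428 and 0.713 CPM in the knockout and 43.7 and 34.6 CPM in Canton S. The stocks did not overlap in w, with an edgeR adjusted p of 0.0568.

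None of the 5 reported targets of miR-11 and miR-998 that were examined passed the test. The ubiquitin ligase gene Cbl had 60.5 and 63.9 CPM in RMCE-2 and 57.0 and 60.7 CPM in the knockout (log2 fold change 0.08, edgeR adjusted p = 0.658). The apoptosis inducer hid had 58.7 and 51.6 CPM in RMCE-2 and 46.1 and 49.1 CPM in the knockout (log2 fold change 0.21, edgeR adjusted p = 0.62), and its libraries did not overlap. rpr, another inducer of cell death, had 11.2 and 7.03 CPM in RMCE-2 and 8.35 and 6.53 CPM in the knockout, which overlap. The remaining inducers grim and skl were at 2.03 CPM or less in all 4 libraries, and their libraries overlapped. A p that misses the threshold does not show that these genes were equal between the stocks. The 16 apoptosis genes tested included no call, and neither did the 26 genes of EGFR signalling, beside 0.578% of all genes tested. At that share, lists of this size can be without a call whether or not their genes differ from the rest. In the EGFR list the receptor gene Egfr had 399 and 365 CPM in RMCE-2 and 363 and 387 CPM in the knockout, and the smallest edgeR adjusted p, 0.0944, belonged to sev, the receptor kinase of the R7 photoreceptor, with 263 and 252 CPM in RMCE-2 and 177 and 203 CPM in the knockout. That gene was picked after its values were seen.

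Among called genes averaging 5 CPM or more in the higher stock, the largest rise was in Cyp6a17 (chromosome 2R, from 14873953), a cytochrome P450 gene known for its part in temperature preference of flies. It had 60.2 and 34.2 CPM in RMCE-2 and 0.267 and 0.119 CPM in the knockout. The knockout was the low stock, as Canton S had 24.8 and 35.4 CPM and RMCE-1 37.5 and 83.1 CPM. The log2 fold change was 7.85 (SE 0.80, edgeR adjusted p = 0.0404). Its neighbour and close relative Cyp6a23 had 9.59 and 3.57 CPM in RMCE-2 and 1.44 and 1.96 CPM in the knockout and was not called (edgeR adjusted p = 0.243). Cyp6a17 was called in 11 of the 19 alternative fits. The copies may share reads, so the values of both are uncertain. Cyp6a17 was the only call among 65 tested P450 genes, beside 0.578% of all genes tested. The median log2 fold change of the P450 genes was 0.06.

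The sugar transporter family gene sut2 (2R, from 8087396) gave the smallest adjusted p. It had 29.5 and 24.2 CPM in RMCE-2 and 0.802 and 0.772 CPM in the knockout (log2 fold change 5.07, SE 0.18, edgeR adjusted p = 0.000224). Here Canton S, at 1.28 and 1.02 CPM, was as low as the knockout, and RMCE-1, at 12.4 and 12.3 CPM, lay between. The adjoining family member sut1 had 51.7 and 51.6 CPM in RMCE-2 and 48.7 and 50.6 CPM in the knockout, with an edgeR adjusted p of 0.796.

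Of the other large rises, CG13840 had 7.21 and 16.2 CPM in RMCE-2 and 0.909 and 0.772 CPM in the knockout (log2 fold change 3.79, edgeR adjusted p = 0.0302). GILT3, of a family of lysosomal thiol reductases, had 8.82 and 10.2 CPM in RMCE-2 and 1.50 and 1.66 CPM in the knockout (log2 fold change 2.59, edgeR adjusted p = 0.0217). In both genes Canton S was near or above the lower RMCE-2 library, and RMCE-1 was near the knockout. CG8785 had 31.8 and 32.5 CPM in RMCE-2 and 9.90 and 9.56 CPM in the knockout, a narrow spread within each stock (log2 fold change 1.72, SE 0.08, edgeR adjusted p = 0.000733). Canton S at 25.3 and 26.6 CPM and RMCE-1 at 18.8 and 17.8 CPM filled the interval between them. The genes CG10947, CG13028 and CG6972 complete the 10 largest rises, with log2 fold changes of 1.77, 1.58 and 1.44.

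Under the same minimum, the largest falls were in Dnaaf3 and CG4408, with only a trace of reads in RMCE-2. Dnaaf3, named for the assembly of axonemal dyneins in cilia, had 0.230 and 0.112 CPM in RMCE-2 and 4.98 and 5.47 CPM in the knockout (log2 fold change -4.93, SE 0.60, edgeR adjusted p = 0.0302). Its level in RMCE-2 was like that in the other stocks, at 0.543 and 0.161 CPM in Canton S, with 0.321 and 0.257 CPM in RMCE-1. CG4408 (3R, from 23361889) showed the reverse layout, with RMCE-2 the stock apart. It had 0.920 and 1.79 CPM in RMCE-2 and 33.2 and 33.0 CPM in the knockout, against 18.3 and 32.9 CPM in Canton S, with 44.4 and 34.8 CPM in RMCE-1 (log2 fold change -4.56, SE 0.41, edgeR adjusted p = 0.021).

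CG32373 (3L, from 7650548) had 1.76 and 1.56 CPM in RMCE-2 and 21.2 CPM in each knockout library (log2 fold change -3.67, SE 0.21, edgeR adjusted p = 0.00206). Canton S was low here, at 2.66 and 1.99 CPM, and RMCE-1 high, at 36.5 and 26.7 CPM. The annotated gene spans several others, and without the strand setting of the counting their reads cannot be told apart. CG31436 had 5.60 and 4.91 CPM in RMCE-2 and 33.3 and 32.3 CPM in the knockout (log2 fold change -2.64, edgeR adjusted p = 0.0101). pinta, a retinoid-binding protein gene of the visual pigment pathway, had 4.53 and 5.47 CPM in RMCE-2 and 16.5 and 19.4 CPM in the knockout (log2 fold change -1.84, edgeR adjusted p = 0.00875). CG5326 had a log2 fold change of -1.82, and the identifiers FBgn0052822 and FBgn0261362, with no symbol in the annotation used, had -3.44 and -2.60.

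**Figure D2:**
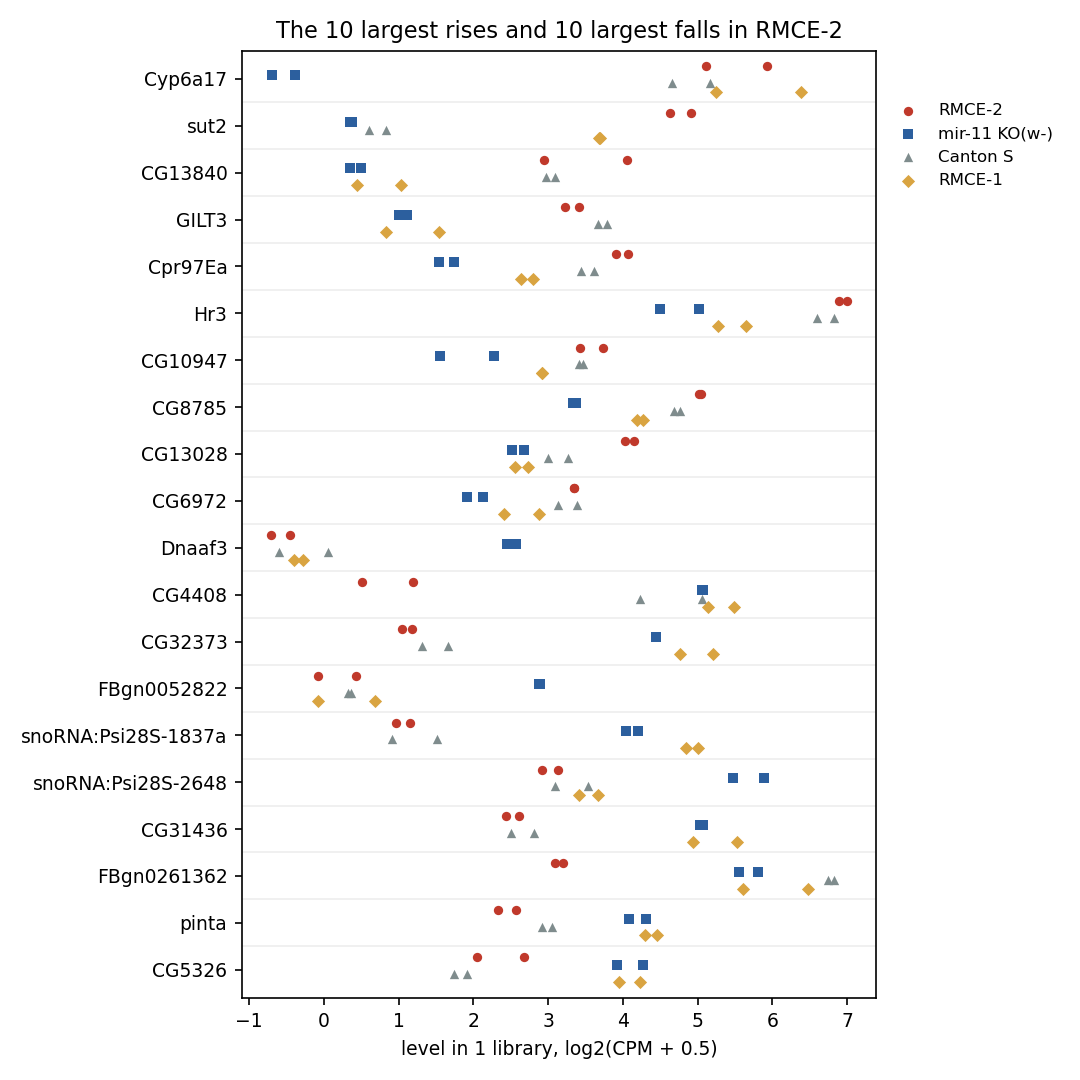
Levels of the 10 largest called rises (upper rows) and 10 largest called falls (lower rows) in single libraries, on a log2(CPM + 0.5) axis, with 2 points per stock. RMCE-2 and mir-11 KO(w-) are apart in every row, while the Canton S and RMCE-1 points side with either stock or lie between, as in CG8785 with 25.3 and 18.8 CPM in their replicate 1 libraries.

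Small nucleolar RNAs, which guide cleavage and modification of ribosomal RNA, gave 3 calls, all lower in RMCE-2, among 205 tested. Of all genes tested, 0.244% were called lower. snoRNA:Psi28S-1837a, a guide for pseudouridine in 28S rRNA, had 1.46 and 1.73 CPM in RMCE-2 and 17.9 and 16.0 CPM in the knockout (log2 fold change -3.40, SE 0.24, edgeR adjusted p = 0.00483). Canton S was low too, at 1.38 and 2.36 CPM, and RMCE-1 high, at 28.3 and 31.5 CPM. This snoRNA lies within CG10576 (3L), whose own level was 414 and 417 CPM in RMCE-2 and 412 and 429 CPM in the knockout. The sister guides snoRNA:Psi28S-1837b and snoRNA:Psi28S-1837c, in the same host, were not called (edgeR adjusted p = 0.599 and 0.788). A short RNA of that host, sncRNA:CR43603, was called with 25.1 and 26.9 CPM in RMCE-2 and 50.6 and 50.4 CPM in the knockout. The host gene's edgeR adjusted p was 0.934, so of the RNAs counted in this gene the calls fell on snoRNA:Psi28S-1837a and sncRNA:CR43603.

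snoRNA:Psi28S-2648, within RpL36A on 2L, had 8.28 and 7.03 CPM in RMCE-2 and 44.0 and 58.8 CPM in the knockout (log2 fold change -2.75, edgeR adjusted p = 0.00891). Only the knockout was high, as Canton S had 8.04 and 11.1 CPM and RMCE-1 12.2 and 10.2 CPM. Its host RpL36A, a ribosomal protein gene, had an edgeR adjusted p of 0.676. snoRNA:U3:9B, a copy of the U3 RNA that serves pre-rRNA cleavage, had 41.8 and 38.8 CPM in RMCE-2 and 62.2 and 62.3 CPM in the knockout (log2 fold change -0.63, edgeR adjusted p = 0.0481). Over the whole list the median log2 fold change was -0.18, with 17 members higher and 76 lower without overlap of libraries, beside 22.9% and 27.3% of all genes tested. Copies of U3 are alike in sequence and may share reads.

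Of 19 tested ecdysone-response genes 2 were called, both nuclear receptor genes and both higher in RMCE-2. Of all genes tested, 0.334% were called higher. Hr3, an early-late receptor of the cascade, had 118 and 128 CPM in RMCE-2 and 31.8 and 22.0 CPM in the knockout (log2 fold change 2.19, SE 0.21, edgeR adjusted p = 0.021). Hr4, induced in the same phase, had 134 and 169 CPM in RMCE-2 and 49.0 and 68.0 CPM in the knockout (log2 fold change 1.37, SE 0.18, edgeR adjusted p = 0.0414). For both genes Canton S was close to RMCE-2, at 96.8 and 113 CPM for Hr3 and 143 and 155 CPM for Hr4. RMCE-1 was near the knockout, at 49.8 and 38.2 CPM for Hr3 and 65.3 and 60.4 CPM for Hr4. Of the 19 alternative fits 13 called Hr3 and 7 called Hr4, and the highest edgeR adjusted p of Hr4 was 0.274. Hr3 overlaps CG12912 on the same strand, and Hr4 overlaps PIG-K on the other strand.

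Of the other list members, none passed, and those named next were picked after their values were seen. ImpE1, an ecdysone-induced gene of disc eversion, had 322 and 390 CPM in RMCE-2 and 230 and 234 CPM in the knockout (log2 fold change 0.62, edgeR adjusted p = 0.0568). E23, an ecdysone-induced transporter, had 38.7 and 40.8 CPM in RMCE-2 and 22.7 and 25.0 CPM in the knockout (log2 fold change 0.74, edgeR adjusted p = 0.0776). Blimp-1 and Eip78C, transcription factor genes of the cascade, had log2 fold changes of 0.87 and 0.89, with edgeR adjusted p of 0.108 and 0.142. The receptor itself had values near to one another: EcR had 285 and 245 CPM in RMCE-2 and 285 and 289 CPM in the knockout, and its partner usp 66.7 and 67.0 CPM in RMCE-2 and 72.3 and 70.6 CPM in the knockout. Over the 19 genes the median log2 fold change was 0.30, with 14 higher and 2 lower without overlap of libraries, beside 22.9% and 27.3% of all genes tested.

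**Figure D3:**
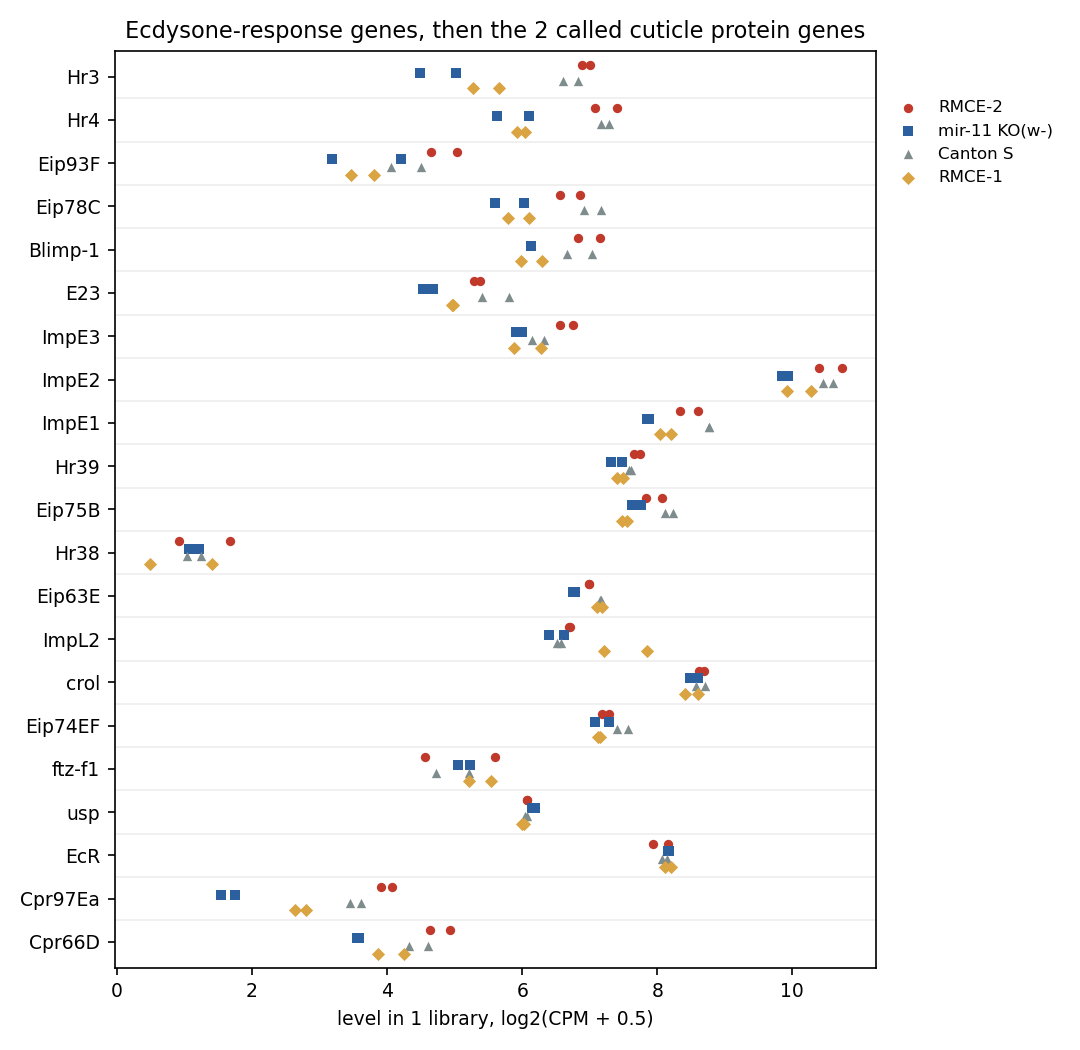
Levels of the 19 tested ecdysone-response genes, ordered by log2 fold change, and below them the 2 called cuticle protein genes, in single libraries on a log2(CPM + 0.5) axis. In Hr3 and Hr4 both RMCE-2 points lie with Canton S and above both mir-11 KO(w-) points, while EcR and usp at the foot of the list lie close together in all stocks.

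Of 51 tested cuticle protein genes 2 were called, both higher in RMCE-2, beside 0.334% of all genes tested. Cpr97Ea, which encodes a chitin-binding cuticle protein, had 14.5 and 16.3 CPM in RMCE-2 and 2.41 and 2.85 CPM in the knockout (log2 fold change 2.55, SE 0.16, edgeR adjusted p = 0.00259). Cpr66D, of the same family, had 30.0 and 24.3 CPM in RMCE-2 and 11.5 and 11.3 CPM in the knockout (log2 fold change 1.25, edgeR adjusted p = 0.0415). Without overlap of libraries, 20 of the 51 were higher and 6 lower, beside 22.9% and 27.3% of all genes tested, so that the members without overlap in either direction are near the overall share of 50.3%. The median was 0.33. The other 71 of the 122 listed cuticle genes had too few reads to be tested.

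Other called rises were outside these lists. Cht5, a chitinase gene, had 26.7 and 25.0 CPM in RMCE-2 and 9.58 and 12.4 CPM in the knockout (log2 fold change 1.24, edgeR adjusted p = 0.0249). Its level in RMCE-1, 28.8 and 29.0 CPM, was as high as in RMCE-2. The gene b, whose enzyme makes the beta-alanine used in tanning, had 74.8 and 82.0 CPM in RMCE-2 and 43.4 and 43.7 CPM in the knockout (log2 fold change 0.85, edgeR adjusted p = 0.0302). neo, which encodes a zona pellucida protein of the apical matrix, had 107 and 115 CPM in RMCE-2 and 72.1 and 77.6 CPM in the knockout (log2 fold change 0.57, edgeR adjusted p = 0.0302). Sb, the transmembrane protease of disc eversion, had 35.3 and 40.4 CPM in RMCE-2 and 22.1 and 23.7 CPM in the knockout (log2 fold change 0.72, edgeR adjusted p = 0.0484). CHKov1, a choline-kinase-like gene on 3R, had 175 and 155 CPM in RMCE-2 and 80.6 and 87.7 CPM in the knockout (log2 fold change 0.97, SE 0.08, edgeR adjusted p = 0.00891). RMCE-2 was the high stock, as Canton S had 96.0 and 102 CPM and RMCE-1 111 and 109 CPM. Epac, an exchange factor for Rap that is switched on by cyclic AMP, had a log2 fold change of 1.02, and Jhbp2, of a juvenile hormone binding family, had 0.96. Spn100A, a serpin gene, had 98.2 and 118 CPM in RMCE-2 and 61.0 and 60.1 CPM in the knockout (log2 fold change 0.84, edgeR adjusted p = 0.0302). Dscam1, a neuronal receptor of the immunoglobulin family, had the smallest called rise. It had 123 and 121 CPM in RMCE-2 and 92.6 and 93.6 CPM in the knockout (log2 fold change 0.39, edgeR adjusted p = 0.0481). Of the 19 alternative fits, 15 called CHKov1, 13 Cht5, 12 Spn100A, 11 each b, neo and Epac, 8 Sb, 7 Dscam1 and 6 Jhbp2.

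The remaining falls were in genes of varied function. phr, a DNA photolyase gene, had 18.7 CPM in each RMCE-2 library and 38.0 and 43.7 CPM in the knockout (log2 fold change -1.13, SE 0.10, edgeR adjusted p = 0.00954). IntS12, of the Integrator complex that trims small nuclear RNAs, had 4.14 and 6.30 CPM in RMCE-2 and 14.8 and 14.7 CPM in the knockout (log2 fold change -1.49, edgeR adjusted p = 0.0328). dj-1beta, a fly homolog of the redox protein DJ-1, had 28.1 and 29.0 CPM in RMCE-2 and 49.9 and 46.6 CPM in the knockout (log2 fold change -0.76, edgeR adjusted p = 0.0149). Lgr3, the receptor of the growth-delay hormone Ilp8, was low in both stocks, with 0.997 and 0.893 CPM in RMCE-2 and 3.74 and 3.27 CPM in the knockout. Dus2, a tRNA dihydrouridine synthase gene, and Obp56b, of the odorant-binding proteins, had log2 fold changes of -0.72 and -0.93 (edgeR adjusted p = 0.0494 and 0.0178). They were called in 4 and 13 of the 19 alternative fits. CG13065 had 0 and 1 reads in RMCE-2, and no fold is given for it.

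Among 12 retinal determination genes, dan was called lower and none higher, beside 0.244% and 0.334% of all genes tested. dan, a nuclear factor of eye and antenna specification, had 72.4 and 70.3 CPM in RMCE-2 and 93.4 and 93.2 CPM in the knockout (log2 fold change -0.39, SE 0.06, edgeR adjusted p = 0.0478). Canton S, at 66.9 and 66.6 CPM, was level with RMCE-2, and RMCE-1, at 89.6 and 85.6 CPM, was close to the knockout. Its paralogue danr had 67.4 and 70.9 CPM in RMCE-2 and 85.9 and 90.1 CPM in the knockout (log2 fold change -0.35, edgeR adjusted p = 0.0995). dac had a log2 fold change of -0.36 (edgeR adjusted p = 0.0729). Both were picked after their values were seen. Without overlap of libraries, 3 list members were higher and 9 lower, beside 22.9% and 27.3% of all genes tested, and the median was -0.18. dan was called in 7 of the 19 alternative fits and lost, among others, with library totals alone, and its highest edgeR adjusted p was 0.376. It overlaps lobo, which is on the other strand. The 17 genes of the morphogenetic furrow and R8 selection gave no call and a median of 0.04.

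Growth and division genes gave no call, beside 0.578% of all genes tested, with medians below 0. In the list of 29 mitosis genes 3 were higher and 22 lower without overlap, with a median log2 fold change of -0.17, where 22.9% of all genes tested were higher and 27.3% lower without overlap. The 20 E2F and replication genes had 1 higher and 13 lower and a median of -0.14, and the smallest edgeR adjusted p was 0.173. dap, the inhibitor of cyclin E kinase, had 109 and 120 CPM in RMCE-2 and 139 and 143 CPM in the knockout (log2 fold change -0.30, edgeR adjusted p = 0.174). Of 83 ribosomal protein genes 4 were higher and 67 lower without overlap, at a median of -0.08, and of 67 nuclear genes of oxidative phosphorylation 2 were higher and 51 lower, at a median of -0.18. The 115 histone genes had a median of -0.26 with 112 lower, but these near-identical copies share reads and cannot be counted as separate genes.

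Summed markers of salivary gland, fat body, hemocytes and muscle did not overlap between the stocks, while those of gut and testis did. Replicates of a stock could lie further apart: in RMCE-1 the salivary gland sums were 202 and 4814 CPM and the fat body sums 594 and 8992 CPM. The part of such tissues in the called differences was not tested. In such bulk samples fewer cells of a type and less RNA per cell cannot be told apart. Glue and other salivary gland markers summed to 214 and 218 CPM in RMCE-2 and 753 and 572 CPM in the knockout, with 1 of 14 tested members higher and 11 lower without overlap, beside 22.9% and 27.3% of all genes tested. CrebA, a factor of secretory cells that is expressed more widely, had 175 and 177 CPM in RMCE-2 and 137 and 133 CPM in the knockout. ng3, a gland gene, had 1.69 and 21.5 CPM in RMCE-2 and 303 and 25.5 CPM in the knockout, and ng4 had no reads in the 4 libraries. Fat body markers summed to 1091 and 2434 CPM in RMCE-2 and 703 and 515 CPM in the knockout, with 7 of 11 higher and 1 lower without overlap. Fbp1, the receptor of storage proteins, had 103 and 893 CPM in RMCE-2 and 39.4 and 10.2 CPM in the knockout, and the iron carrier gene Tsf1 had 603 and 337 CPM in RMCE-2 and 421 and 403 CPM in the knockout, which overlap. The lower member was the storage protein gene Lsp1gamma, with 2.45 and 0 CPM in RMCE-2 and 42.7 and 33.7 CPM in the knockout, picked after its values were seen. None of these markers was called, beside 0.578% of all genes tested.

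Hemocyte markers summed to 827 and 801 CPM in RMCE-2 and 910 and 1055 CPM in the knockout. Of 15 tested, 3 were higher and 10 lower without overlap, beside 22.9% and 27.3% of all genes tested. PPO2, the prophenoloxidase of crystal cells, had 7.90 and 13.4 CPM in RMCE-2 and 65.2 and 71.0 CPM in the knockout (edgeR adjusted p = 0.0512) and was picked after its values were seen. Muscle markers summed to 10422 and 8144 CPM in RMCE-2 and 10518 and 10823 CPM in the knockout, with 1 of 17 higher and 13 lower without overlap. Sums for gut were 10.7 and 2.18 CPM in RMCE-2 and 16.6 and 8.38 CPM in the knockout, with Jon99Ci, zetaTry and lambdaTry at 0 in all 4 libraries. Testis markers summed to 15.4 and 12.9 CPM in RMCE-2 and 15.6 and 14.0 CPM in the knockout, with Mst84Da and Mst84Dc at 0 in all 4. Neuron and glia lists, whose cells an eye disc holds, had no call, beside 0.578% of all genes tested, and medians of 0.16 and 0.29.

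Stress genes set the RMCE-2 replicates apart from each other. The 7 Hsp70 and Hsp68 genes, which rise on heat or injury, summed to 835 and 137 CPM in RMCE-2 and 33.0 and 44.6 CPM in the knockout. All 7 were higher without overlap, beside 22.9% of all genes tested, with a median log2 fold change of 4.64, and none was called. Replicate 1 of RMCE-2 was far above replicate 2. The near-identical Hsp70 copies share reads. The small heat shock proteins did not follow this split, as their sums were 2764 and 3735 CPM in RMCE-2 and 2696 and 2756 CPM in the knockout, with replicate 2 of RMCE-2 the highest. Of 6 tested, 3 were higher and 1 lower without overlap, none was called, and Hsp23 had 1383 and 2036 CPM in RMCE-2 and 1668 and 1673 CPM in the knockout. Of 17 genes of the JNK and wound response none was called, beside 0.578% of all genes tested. Without overlap 10 of them were higher and 1 lower, beside 22.9% and 27.3% of all genes tested, and the median was 0.33. Gadd45, a stress-induced gene picked after its values were seen, had 64.7 and 29.1 CPM in RMCE-2 and 17.2 and 17.6 CPM in the knockout (edgeR adjusted p = 0.568). Without that library 9 genes were called, as given above.

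**Figure D4:**
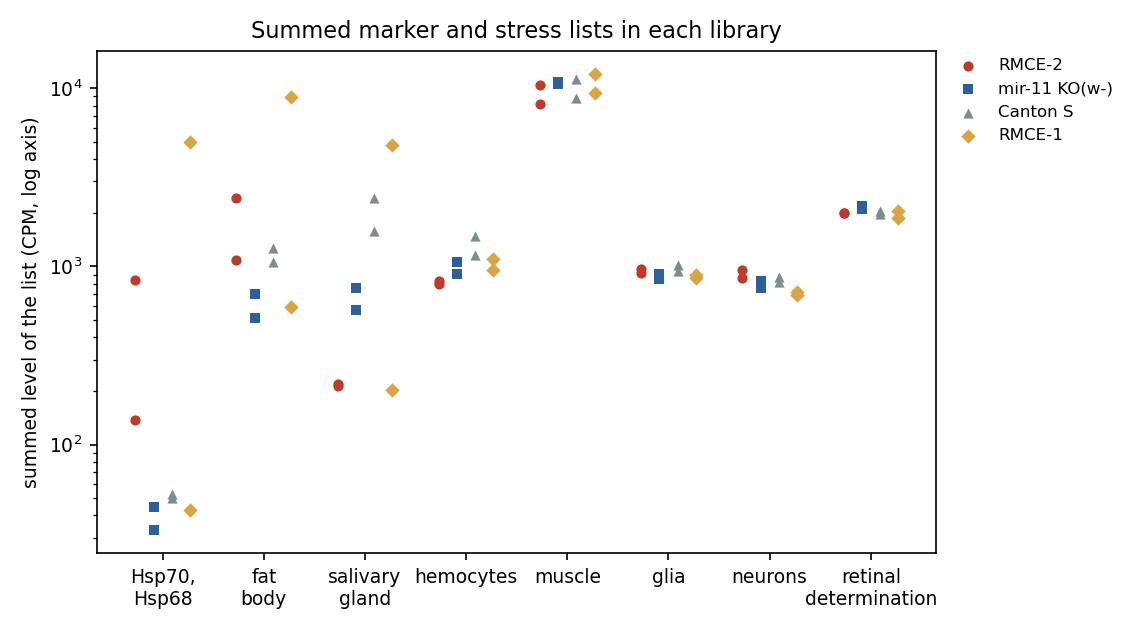
Summed CPM of marker and stress lists in each library, on a log axis, with RMCE-2 to the left of mir-11 KO(w-) and the other stocks at the right of each set. The salivary gland sums of 214 and 218 CPM in RMCE-2 lie below the knockout's 753 and 572 CPM, and the Hsp70 and Hsp68 sums split RMCE-2 at 835 and 137 CPM.

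The called genes were spread unevenly along the genome. Of the 59 with a position in the BDGP6.54 annotation, 26 were on chromosome arm 3R, which is 44.1% of them, while 3R holds 23.8% of the tested genes with a position. The arms 2R, 3L, X and 2L held 12, 11, 6 and 4 calls, and chromosome 4 held none. Within 3R, 22 of the 26 calls sat between E2f1 and the tip of the arm. Of 947 tested genes distal of E2f1, 22 were called, or 2.32%, with 12 higher and 10 lower, beside 37 of 9610, or 0.385%, in the rest of the genome. Within 1 Mb of E2f1 on either side, 3 of 186 were called (1.61%). This stretch was chosen after the values were seen, and neighbouring genes are not independent, so no test is given. The distal share was the larger in 17 of the 20 fits, and the smaller in the 2 fits lacking a knockout library, where it was 0%, and in the replicate-number block over the 4 libraries, at 0.109% beside 0.14%.

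**Figure D5:**
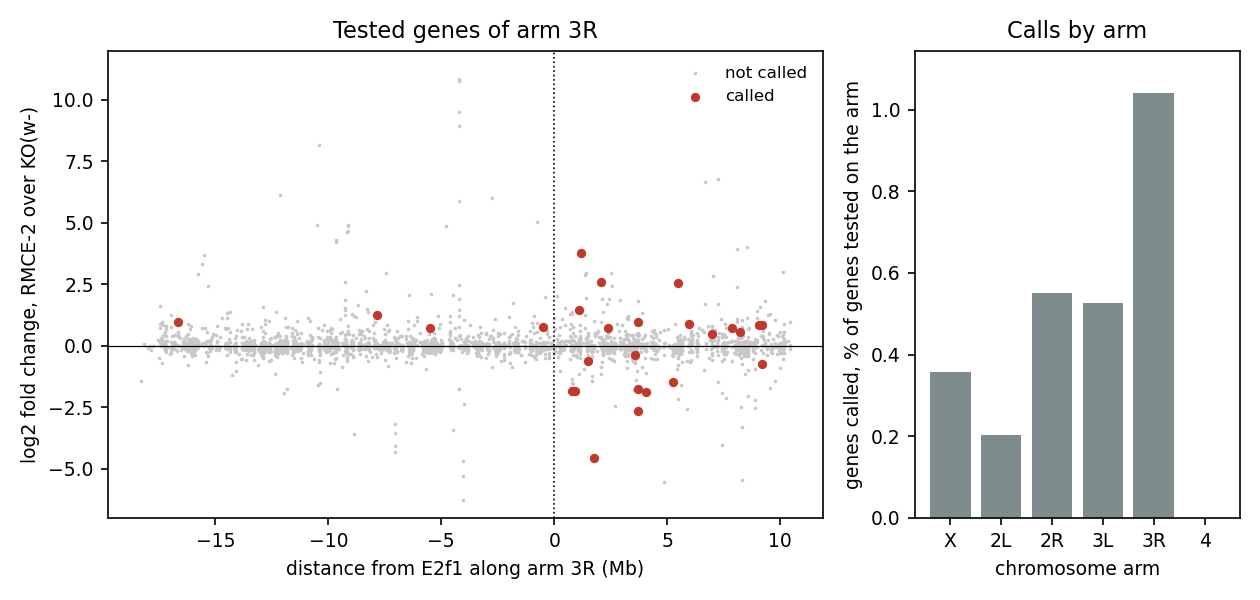
At left, the log2 fold change of tested genes on arm 3R by distance from E2f1 in Mb (dotted line), with called genes in red and rising distance toward the tip of the arm. At right, the share of tested genes called on each arm, with bars from 0; 22 of the 26 calls on 3R lie to the right of E2f1 and 3R has the tallest bar at 1.04%.

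Among the distal calls lies a run of related, choline-kinase-like genes between 25302464 and 25331203 on 3R. CG31436 and CG10559 were called lower and CHKov1 was called higher, so neighbours changed in both directions. CG10559 had 2.84 and 2.51 CPM in RMCE-2 and 8.88 and 9.03 CPM in the knockout (log2 fold change -1.74, edgeR adjusted p = 0.0149). CG31370, next to CG31436, had 4.68 and 3.07 CPM in RMCE-2 and 13.9 and 14.3 CPM in the knockout (log2 fold change -1.88, edgeR adjusted p = 0.0568). CHKov2, at the end of the run, had 35.9 and 31.9 CPM in RMCE-2 and 23.8 and 24.2 CPM in the knockout (edgeR adjusted p = 0.209).

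The levels of the other stocks at the called genes are described by position. At the 22 distal calls the mean level of RMCE-1, on the log2(CPM + 0.5) scale, was nearer to the knockout in 21 and that of Canton S nearer to RMCE-2 in 17. At the 37 other calls with a position, RMCE-1 was nearer to the knockout in 25, or 67.6%, and Canton S nearer to RMCE-2 in 26, or 70.3%. Over all tested genes, RMCE-1 was nearer to the knockout in 57.5% and Canton S nearer to RMCE-2 in 52.4%. The cassette and the genetic background of a stock cannot be told apart in this design.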

How the data were processed

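RNA was measured in 8 libraries of larval eye discs, 2 biological replicates of each of 4 stocks per the labels, so p-values reflect the spread between such samples. Per the labels' protocols, ribosomal RNA was removed from Trizol-extracted total RNA, and directional libraries were read from a single end over 50 bp. The submitters' processing notes name TopHat2, featureCounts, Subread, FastQC and CASAVA 1.8.2. The deposited values are raw read counts per gene, not normalized by the authors. Which genome build, annotation and strand setting were used in counting is not given in the sources here, so reads of overlapping genes cannot be told apart. Ensembl's BDGP6.54 annotation gave a symbol and position to 15002 of 15682 identifiers and none to 680.

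The test was that of edgeR 4.0.16, run in R 4.3.3. TMM factors ran from 0.9711 to 1.036, filterByExpr kept 11068 genes and left out 4614, and a mean per stock was fitted over all 8 libraries with the robust quasi-likelihood test and 4 residual degrees of freedom. The common biological coefficient of variation was 20.6%. P-values were adjusted by Benjamini-Hochberg over all genes tested, and a gene was called under 0.05. The SE printed with a log2 fold change is its absolute value divided by the square root of the test's F statistic, so it is an approximation. The script was tested on simulated data. A level in CPM is a count scaled by the library's total over the tested genes times its TMM factor. Alternatives were DESeq2 1.42.0, other scalings and filters, fewer libraries, a replicate block and a fit without the robust option.

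The members and the 40 gene lists were chosen with earlier results of these data known. A list is described by its counts of called members, of members whose libraries do not overlap between the stocks, and by its median log2 fold change. Named genes are the 10 largest rises and falls among called genes at 2-fold or more whose higher stock averaged 5 CPM or more, then the locus, its reported targets and w, then up to 4 called members per list or else up to 2 by mean level. Every other gene named, called or not, was picked after its values were seen.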

Additional observations from a re-analysis of the deposited data

How the results depend on the processing

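All 64 called genes kept their direction in the 19 alternative fits, which the lack of overlap between their libraries made likely beforehand. The count of 64 calls, with 37 higher, 27 lower and 34 at 2-fold or more, stayed within 1.5 times under both other scalings and both other filters. With DESeq2 it was 254, with 167 higher, 87 lower and 107 at 2-fold or more, and higher calls were 65.7% of calls beside 57.8%. The DESeq2 calls included all 64. With only the 4 libraries compared the count was 99, with 63 higher, and just 46 of the 64 were among them. Without the pair of other libraries that stood apart (replicate 1 of Canton S, replicate 2 of RMCE-1) it was 105, with 68 higher and 55 at 2-fold or more, and without the robust option 40, with 22 higher. Leaving out each library in turn gave 3 to 78 calls, 2 to 51 higher, 1 to 27 lower and 3 to 38 at 2-fold or more. A stock's lone library is then assumed to vary like the others. The labels give no pairing of samples by replicate number. Deviations of same-numbered libraries correlated at -0.354 between RMCE-2 and the knockout over 8174 genes, and at -0.234 to 0.324 in the other pairs of stocks. With 2 libraries a stock, these values cannot show whether samples were paired. With the replicate block there were 9 calls over all 8 libraries, 4 higher, 5 lower and 8 at 2-fold or more. All 9 were among the 64. Over the 4 libraries this block gave 15 calls, 11 higher, 4 lower and 15 at 2-fold or more, and 8 of them were among the 64. A block with crossed numbers, added after seeing the data, gave 484 calls, 313 higher, 171 lower and 191 at 2-fold or more. The uncalled rpr, grim, skl and Egfr changed sign without a library: leaving out each in turn, their log2 fold changes ran from -0.077 to 0.607, -1.118 to 1.201, -0.810 to 1.712 and -0.032 to 0.106. The cause of these moves was not tested. By list, the apoptosis median of 0.009 changed sign to -0.005 with library totals alone, and no other list median did so under the 3 alternatives run by list (RLE scaling, library totals, DESeq2). Depth limits mir-11 and mir-998, with 0 to 31 reads.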

Other observations

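Of the genes that were not called, 13 had at least 10-fold between the nearest libraries of the stocks with the higher stock averaging 5 CPM or more, a rule of size chosen after the values were seen. RMCE-2 was higher in 5 of them and the knockout in 8. With only the 4 libraries compared, 4 of the 13 were called, and DESeq2 called 6. The 4 neighbouring genes CG42798, CG33333, CG42834 and CG14332 on 3R (17406678 to 17422202) had the largest differences. CG14332 had 115 and 111 CPM in RMCE-2 and 0.107 and 0 CPM in the knockout, while Canton S had 0.0493 and 167 CPM and RMCE-1 had 194 and 0.343 CPM. The replicates of the other stocks were split. The edgeR adjusted p was 0.479 over 8 libraries and 0.0014 over the 4 libraries alone. The larval cuticle gene Lcp1, picked after its values were seen, was split in the same libraries, with 118 and 122 CPM in RMCE-2, 6.26 and 18.7 CPM in the knockout, 6.96 and 162 CPM in Canton S, with 104 and 7.12 CPM in RMCE-1.

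CG13946 had 3.68 and 17.7 CPM in RMCE-2 and 0.267 and 0.0594 CPM in the knockout (edgeR adjusted p = 0.109, DESeq2 adjusted p = 5e-06). CG13461 had 0.383 and 0.893 CPM in RMCE-2 and 36.5 and 14.7 CPM in the knockout (edgeR adjusted p = 0.144, DESeq2 adjusted p = 2e-06). Both genes had non-overlapping libraries and a wide gap within a stock.

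In 2 genes picked after their values were seen, the replicates of a stock differed widely. VGlut, the vesicular glutamate transporter of motor neurons, had 1.07 and 20.3 CPM in RMCE-2 and 14.2 and 1.07 CPM in the knockout. pros, a transcription factor gene of neural precursors and R7 cells, had 30.3 and 231 CPM in RMCE-2 and 142 and 27.4 CPM in the knockout. In both genes RMCE-2 replicate 2 and knockout replicate 1 were the high libraries. The neuron marker list had the same order of libraries with a much smaller gap. Its summed levels were 856 and 959 CPM in RMCE-2 and 829 and 760 CPM in the knockout.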
